A study of Mus musculus with 20 samples.

Results

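The endothelin system was described in the transcriptome of cells sorted from the mouse dorsal root ganglion (DRG) to enrich Trpv1 neurons. Its 6 genes here were the ligands Edn1 and Edn3, the receptors Ednra and Ednrb, and the converting enzymes Ece1 and Ece2. They were taken by Ensembl identifier from the 37620 genes of the expression table, and all 6 were found. The genes were chosen by role and with their lumbar to sacral differences in these same libraries already known, among which that of Edn3 was furthest towards lumbar, so their differences between spinal levels are given as a description without a test. The animals were adult male and female mice of 6-8 weeks, homozygous for Trpv1tm2Bbm, a reporter allele that places an alkaline phosphatase and a nuclear β-galactosidase under control of the Trpv1 locus. Every library came from animals with this allele, so no wild-type Trpv1 neurons were compared. DRG were taken from the lumbar level, L4-5, and from the sacral level, L6-S1, and dissociated, and the cells with the brightest product of a β-galactosidase substrate were sorted by flow cytometry. This gave 1 lumbar and 1 sacral library from each of 5 male and 5 female donors, 20 libraries in 4 groups of 5. Each donor label carries a pair of animal numbers, while the study speaks of 5 male and 5 female mice, so whether a donor is 1 animal or a pool is not clear from the sources used here. Donors are called M1 to M5 and F1 to F5 below.

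Endothelins are short peptides cut from larger precursors. Furin-like proteases first release an inactive intermediate, big endothelin, and an endothelin-converting enzyme then cleaves it into the active peptide, which acts on G protein-coupled receptors. In sensory ganglia, endothelin receptor A is known from nociceptive neurons, where endothelin-1 sensitizes TRPV1, and endothelin receptor B is known from satellite glial cells. Outside the adult ganglion, endothelin-3 and endothelin receptor B are required for enteric neurons and melanocytes, both derived from the neural crest.

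The coding bases of the mature peptides are shown for both ligands because the peptides are closely related while the difference between levels was 0.59 log2 for Edn1 and 2.87 log2 for Edn3. They were read from GENCODE M1 transcripts on build NCBIM37 (mm9), forward strand, 5′ to 3′, and capitals mark the bases at which the 2 genes differ. Each stretch lies within the coding part of exon 2, at chr13:42399018-42399080 for Edn1 and at chr2:174587250-174587312 for Edn3.
Edn1: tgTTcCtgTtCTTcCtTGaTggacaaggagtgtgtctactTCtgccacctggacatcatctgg
Edn3: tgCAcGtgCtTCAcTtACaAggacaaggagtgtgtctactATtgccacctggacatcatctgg
The stretches shared 50 of 63 bases (79.4%), and all but the last pair of differing bases fell in the first 20.

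All 6 genes had a value in each of the 20 libraries, so 0 of their 120 cells were empty, against 42.5% of the cells of the whole table. Values are log2 RPKM as the authors deposited them, in which reads are divided by exon length and by library size before the logarithm is taken. The number of reads behind a value was worked back from the steps of the deposited values, which gave 43750109 to 62248518 reads per lumbar and 46493038 to 66080289 per sacral library. A list of 11 sensory neuron markers, among them Trpv1, Calca and Scn10a, had a value in every library, with a summed level of 11.04 to 11.59 log2 RPKM in lumbar and 11.41 to 11.80 in sacral DRG. Markers of other cells also had values, and the summed level of 10 glial markers (Fabp7, Apoe, Kcnj10 and others) was 11.02 to 12.01 log2 RPKM in lumbar and 10.33 to 11.09 in sacral libraries. That glial sum was higher in the lumbar library of all 10 donors, by 0.77 ± 0.21 (SD) log2, and the sum of 10 endothelial markers by 0.90 ± 0.43 log2. The sum of the neuronal markers was higher in the sacral library of all 10 donors, with a lumbar minus sacral difference of -0.21 ± 0.18 log2. In bulk libraries, fewer cells of a type and less RNA per cell cannot be told apart.

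Over all 16304 genes tested between levels with limma, 7436 (45.6%) passed an adjusted p of 0.05, with 2489 (15.3%) upregulated in lumbar and 4947 (30.3%) upregulated in sacral DRG. Of the 6 endothelin genes, 3 lay among those upregulated in lumbar DRG (Edn3, Ednra and Ednrb), 1 among those upregulated in sacral DRG (Ece2), and 2 (Edn1 and Ece1) in neither. With TMM factors, voom or quantile normalization 4 lay towards lumbar, Ece1 with them, and 1 towards sacral. These counts follow from how the genes were chosen, and nothing is read from them. In 0 of the 6 genes did all lumbar libraries stand apart from all sacral libraries, as they did in 1.71% of genes with a value in every library. The median difference of all tested genes was -0.11 on the deposited scale and 0.00 (0.0019) with TMM factors, a scaling that centres most genes by its construction. Which scale is closer to the RNA in the cells was not tested. With TMM factors 49.1% of the genes called were higher in lumbar, with voom 48.3% and with quantile normalization 47.2%, against 33.5% on the deposited values. Each of the 6 endothelin genes kept the sign of its difference under all 3 scalings.

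**Figure D1:**
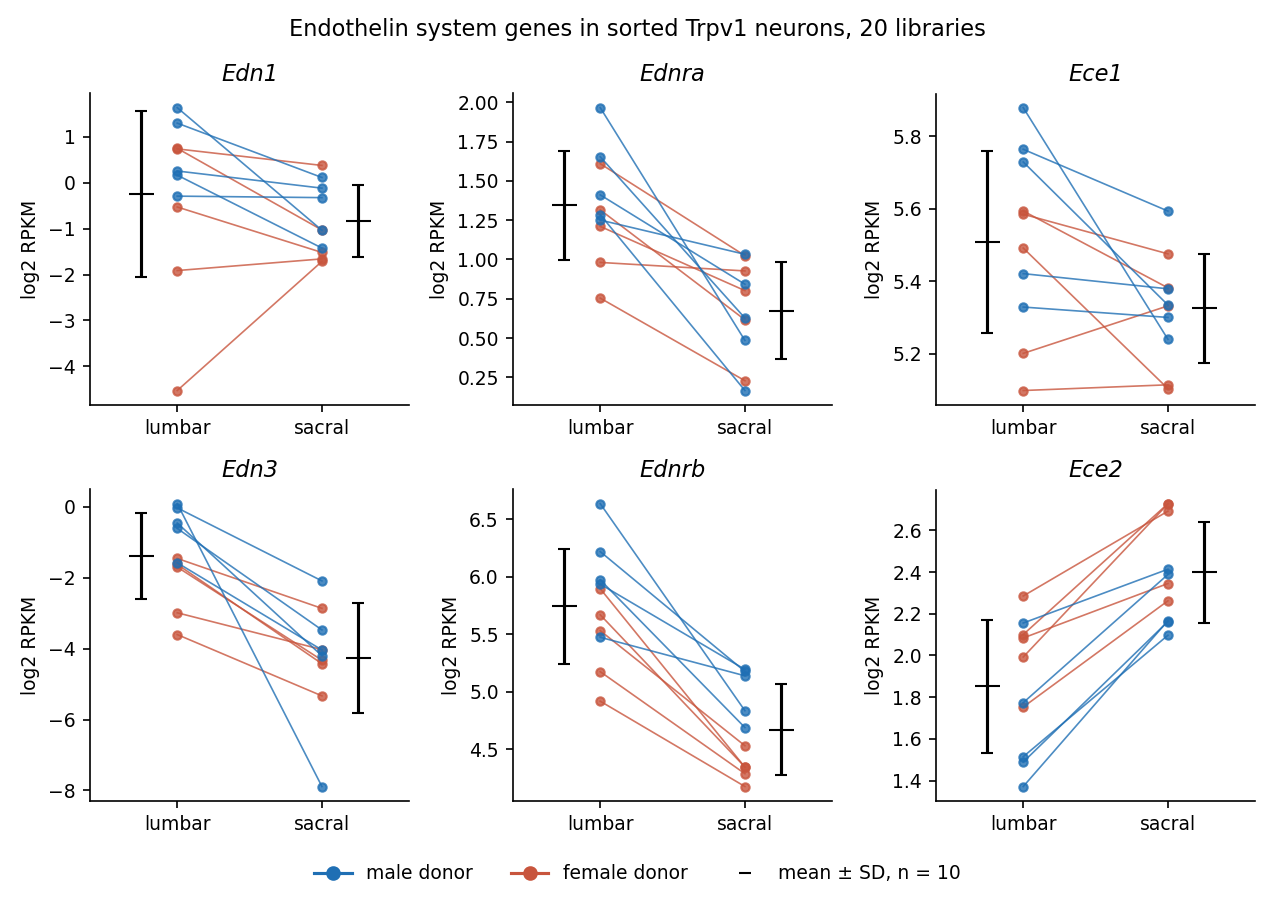
Level of each endothelin gene (y axis, log2 RPKM, a separate scale per gene) in lumbar and sacral libraries (x axis). Points are libraries, lines join the 2 libraries of a donor (blue male, red female), and bars are mean ± SD of 10 libraries; Edn3, Ednra and Ednrb were higher in the lumbar library of all 10 donors and Ece2 in the sacral library of all 10.

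Edn3, which encodes the ligand that acts mainly through endothelin receptor B, had the largest log2 difference of the 6 genes on the deposited values and the lowest level. With a pseudocount of 0.1 its difference was 1.602, still the largest, and with a pseudocount of 1 it was 0.45, below the 1.04 of Ednrb and close to that of Ednra. It lies at chr2:174586120-174609543, forward strand, and no other annotated gene overlaps it. In male lumbar libraries Edn3 was at -0.61 (M1), 0.09 (M2), -0.03 (M3), -1.58 (M4) and -0.45 (M5) log2 RPKM. In female lumbar libraries it was at -1.62 (F1), -3.60 (F2), -1.45 (F3), -1.70 (F4) and -2.99 (F5). The lumbar means were -0.51 in males and -2.27 in females, and the sexes overlapped, as M4 lay among the females. This difference of -1.76 (female minus male, standard error 0.93) did not pass (limma adjusted p = 0.47). In sacral libraries Edn3 ranged from -7.89 in M2 to -2.09 in M3 with a median of -4.12 log2 RPKM. These are few reads, 20 to 177 per lumbar library and 1 to 48 per sacral library, and the lowest value, in M2, rests on 1 read. The means were -1.39 ± 1.21 (SD, n = 10) in lumbar and -4.27 ± 1.56 in sacral DRG. Of the 4 groups only male lumbar stood above -1, the limit for a gene to be tested. The levels overlapped, as the lumbar libraries of F2 and F5 lay below the sacral library of M3. The mean difference, lumbar minus sacral, was 2.87 log2 with a standard error of 0.60, a 7.33-fold higher level in lumbar DRG. Within donors it ran from 1.04 in F5 to 7.98 in M2, and without M2 the highest was 3.75 and the mean 2.35. Edn3 was higher in the lumbar library of all 10 donors, as were 6.55% of the 15318 genes with a value in every library.

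Edn1, which encodes the potent vasoconstrictor made chiefly by endothelial cells, varied more between donors than between levels. It lies at chr13:42396639-42403358, forward strand, free of overlapping genes. Male lumbar libraries were at -0.29 (M1), 1.64 (M2), 1.30 (M3), 0.26 (M4) and 0.17 (M5) log2 RPKM. Female lumbar libraries were at -0.53 (F1), -4.53 (F2), 0.74 (F3), 0.75 (F4) and -1.91 (F5). The library of F2 stood far below the rest with 6 reads, against 36 to 291 in the other lumbar libraries. Sacral libraries ran from -1.71 to 0.38 log2 RPKM with a median of -1.03 and lay within the lumbar range. The mean was -0.24 ± 1.81 (SD, n = 10) in lumbar and -0.83 ± 0.78 in sacral DRG, a difference of 0.59 with a standard error of 0.47. Edn1 was higher in the lumbar library of 8 donors, and F2 (-2.81) and F5 (-0.25) went the other way. Without F2 the mean difference was 0.95 (0.945), without M2 it was 0.40 and without F4 it was 0.37, beside an SD over donors of 1.49. The third ligand gene, Edn2, had no value in 14 of the 20 libraries and at most 21 reads in the others.

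**Figure D2:**
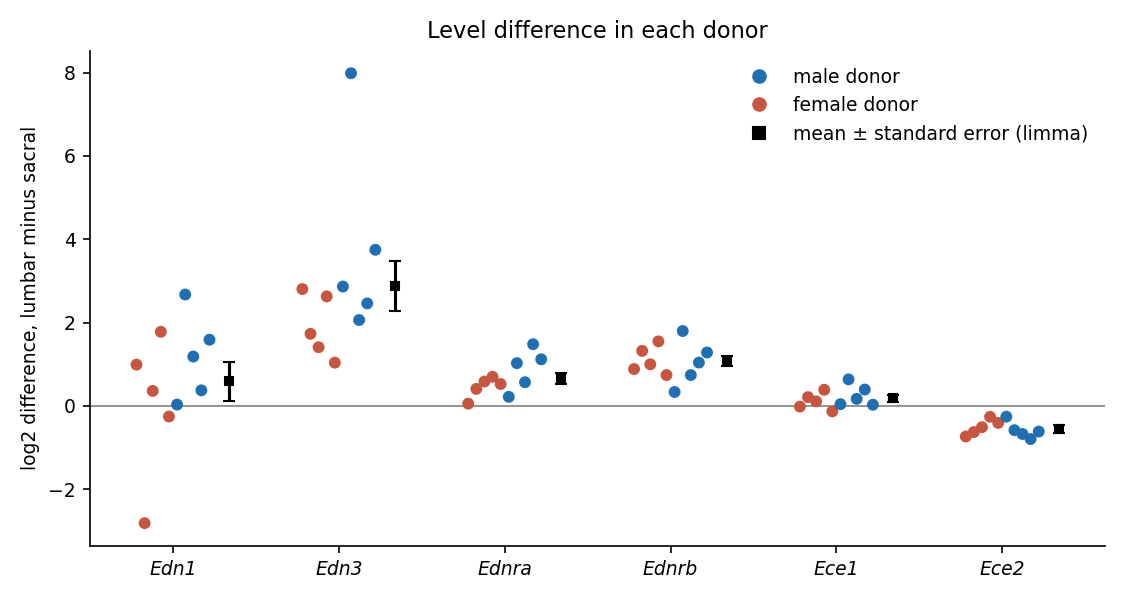
Difference between the lumbar and the sacral library of each donor (y axis, log2, lumbar minus sacral) for the 6 genes (x axis). Points are donors (blue male, red female) and squares are the mean ± standard error from limma; the Edn3 difference of M2, 7.98, stands apart from the next highest, 3.75, and the Ednrb differences lie between 0.33 and 1.80.

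Ednrb, the receptor that binds all endothelins with like affinity, was the most abundant of the 6 genes in lumbar DRG. It lies at chr14:104213842-104243390, reverse strand, with no overlapping gene. Male lumbar libraries were at 5.47 (M1), 6.63 (M2), 5.93 (M3), 6.22 (M4) and 5.97 (M5) log2 RPKM. Female lumbar libraries were at 5.17 (F1), 5.67 (F2), 5.53 (F3), 5.90 (F4) and 4.92 (F5). Lumbar levels thus spread over less than 2 log2 units and rested on 5558 to 15985 reads. Male sacral libraries were at 5.14 (M1), 4.84 (M2), 5.19 (M3), 5.18 (M4) and 4.69 (M5). Female sacral libraries were at 4.29 (F1), 4.35 (F2), 4.53 (F3), 4.35 (F4) and 4.18 (F5). The lumbar libraries of F1 and F5 lay below the highest sacral library, so the levels overlapped, although every donor's lumbar library was above its own sacral library. The means were 5.74 ± 0.50 (SD, n = 10) in lumbar and 4.67 ± 0.39 in sacral DRG, a difference of 1.07 with a standard error of 0.12, or 2.10-fold. Donor differences ran from 0.33 in M1 to 1.80 in M2.

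Ednra, the receptor that prefers endothelin-1 and endothelin-2 and mediates contraction of vascular smooth muscle, was far less abundant. It lies at chr8:80186930-80248363, reverse strand, and shares 91 exon bases with 4933431K23Rik on the opposite strand, which held a median of 29 reads. In lumbar libraries Ednra ran from 0.75 in F5 to 1.97 in M4 with a median of 1.30 log2 RPKM. In sacral libraries it ran from 0.17 in M5 to 1.03 in M1 with a median of 0.71. Only the lumbar libraries of F1 (0.98) and F5 lay below the highest sacral library. The means were 1.34 ± 0.34 (SD, n = 10) and 0.68 ± 0.31 (0.675 before rounding), a difference of 0.67 with a standard error of 0.13, or 1.59-fold higher in lumbar DRG. All 10 donors went this way, from 0.05 in F1 to 1.48 in M4. Reads on Ednra numbered 302 to 1008 per library.

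Within a library, where scaling between libraries has no part, Ednrb made up a median of 95.3% of the receptor RPKM in lumbar and 94.2% in sacral libraries. The log2 ratio of Ednrb to Ednra was 4.40 ± 0.31 (SD, n = 10) in lumbar and 3.998 ± 0.46 in sacral DRG. The ratio was higher in the lumbar library of 9 of 10 donors, by 0.40 ± 0.44 log2. Both receptors thus had lower values in sacral DRG, Ednrb by more than Ednra in 9 donors. The ligands stood in another relation, as the log2 ratio of Edn1 to Edn3 was 1.15 ± 0.98 in lumbar and 3.43 ± 1.31 in sacral DRG, and it was lower in the lumbar library of all 10 donors.

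Ece1, the membrane-bound metalloprotease that converts big endothelin-1, was abundant, with a small difference between levels. It lies at chr4:137418152-137521144, forward strand, and contains the annotated genes Gm13012 and AL807764.1 on the opposite strand, which share no exon base with it. Lumbar libraries ran from 5.10 in F1 to 5.88 in M2 with a median of 5.54 log2 RPKM, and sacral libraries from 5.10 in F4 to 5.59 in M3 with a median of 5.33. The whole sacral range lay within the lumbar range. The means were 5.51 ± 0.25 (SD, n = 10) and 5.33 ± 0.15, and their difference of 0.18 had a standard error of 0.08. Ece1 was higher in the lumbar library of 8 donors and lower in F1 and F5. The difference was 0.41 under quantile normalization and 0.29 with TMM factors.

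Ece2, a related enzyme that works best at acidic pH and is found mainly in neural tissue, was the gene of the 6 that went towards sacral. It lies at chr16:20611666-20646558, forward strand. Lumbar libraries ran from 1.37 in M4 to 2.29 in F5 with a median of 1.88 log2 RPKM, and sacral libraries from 2.10 in M2 to 2.73 in F2 with a median of 2.37. Only the lumbar libraries of M1 (2.16), F2 (2.10) and F5 reached the lowest sacral library. The means were 1.85 ± 0.32 (SD, n = 10) in lumbar and 2.40 ± 0.24 in sacral DRG, a difference of -0.55 with a standard error of 0.10, which is 1.46-fold higher in sacral DRG. All 10 donors went this way, as did 14.6% of genes with a value in every library. Camk2n2, an inhibitor of calcium/calmodulin-dependent kinase, lies within Ece2 on the opposite strand without a shared exon base, and its own difference was -0.57 (standard error 0.09). Whether reads were counted by strand is not given in the sources used here. The log2 ratio of Ece1 to Ece2 was 3.66 ± 0.53 in lumbar and 2.93 ± 0.32 in sacral DRG, higher in the lumbar library of all 10 donors by 0.73 ± 0.32 log2.

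Ordered by level per length, lumbar libraries held Ednrb, Ece1, Ece2, Ednra, Edn1 and Edn3 from highest to lowest. Ednrb and Ece1 were 0.23 ± 0.33 (SD) log2 apart within a library, and Ece2 and Ednra 0.51 ± 0.63, so neither pair of neighbours was separated beyond its spread, each with the first gene higher in 8 of 10 libraries. Ednra and Edn1 were 1.58 ± 1.66 log2 apart, a mean below its SD, although Ednra was higher in 10 of 10. That SD includes the low Edn1 value of F2, -4.53 log2 RPKM from 6 reads. Edn1 and Edn3 were 1.15 ± 0.98 apart, with Edn1 higher in 9. In sacral libraries Ece1 stood above Ednrb by 0.65 ± 0.34 log2 in all 10, and the order below was Ece2, Ednra, Edn1 and Edn3. Each of these lower steps lay beyond its spread, from 1.51 ± 0.69 between Ednra and Edn1 to 3.43 ± 1.31 between Edn1 and Edn3.

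Sex played no part in choosing the genes, and it was tested within each level and as an interaction with limma on all genes. In lumbar DRG 0 of the 6 genes passed an adjusted p of 0.05, where 0.0427% of 16386 genes did. Of the 6, 3 had an unadjusted p under 0.05, as had 1864 of the 16386 genes. They were Ednrb, lower in females by 0.61 log2 (difference -0.61, standard error 0.19, limma adjusted p = 0.29), Edn1 (difference -1.71, standard error 0.73, adjusted p = 0.39) and Ece2 (higher in females, 0.38, standard error 0.15, adjusted p = 0.36). In sacral DRG 0 of 6 passed, where 0.0368% of 16321 genes did, and 1 had an unadjusted p under 0.05, as had 1320 of the 16321 genes. This was Ednrb again, at a mean of 4.34 ± 0.13 (SD, n = 5) in females and 5.01 ± 0.23 in males, a difference of -0.67 (standard error 0.19, limma adjusted p = 0.32). The sexes did not overlap there, as the highest female library (4.53) lay below the lowest male library (4.69), which was true of 0.699% of the 15318 genes with a value in every library. The summed glial markers had a lower mean in female sacral libraries, with overlapping ranges of 10.33 to 10.81 log2 RPKM in females and 10.57 to 11.09 in males. With the mean of these markers as a covariate the Ednrb difference was -0.34. Whether glial cells have a part in this sex difference was not tested. For the interaction, which asks whether the level difference differs between the sexes, 0 of 6 genes passed and 0 had an unadjusted p under 0.05, with 0 of 16304 genes (0%) called over the whole table, beside 668 at an unadjusted p under 0.05. The interaction estimates were not narrow. For Edn3 the level difference was 3.82 ± 2.41 (SD, n = 5) in males and 1.92 ± 0.77 in females, apart by -1.90 with a standard error of 1.19 (limma adjusted p = 0.9996). With voom on the worked-back reads 0 of the 6 genes passed in any of these 3 tests. Over all 15206 genes 7 passed in lumbar DRG, 38 in sacral DRG and 0 for the interaction. Of the 6, 4 in lumbar and 2 in sacral DRG had an unadjusted p under 0.05 with voom, as had 2033 and 1634 of the 15206 genes.

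The glial and endothelial lists moved with 2 of the genes from library to library. Across the 10 lumbar libraries Ednrb followed the summed glial markers with Pearson's r = 0.91 (permutation p = 0.00032, adjusted over 12 relations 0.0038) and Spearman's rho = 0.90 (permutation p = 0.00086, adjusted 0.010). Without the 2 libraries farthest from the median glial sum r was 0.78. Across the 10 sacral libraries r was 0.70 (permutation p = 0.028, adjusted 0.084) and rho 0.73 (adjusted permutation p = 0.062). Across the lumbar libraries Edn1 followed the summed endothelial markers with r = 0.91 (permutation p = 0.00066, adjusted 0.0040) and rho = 0.85 (adjusted permutation p = 0.018), and r was 0.71 without the 2 farthest libraries. The lumbar library of F2, lowest in Edn1, was also lowest of the lumbar libraries in the endothelial sum, at 3.72 log2 RPKM. In sacral libraries r was 0.76 (permutation p = 0.014, adjusted 0.055) and rho 0.73 (adjusted permutation p = 0.062). The relations tested for Edn3 with glial, Ednra with mural, Ece1 with endothelial and Ece2 with neuronal markers had r between -0.24 and 0.44 and adjusted permutation p-values of 0.42 or more for r. Of these, Ece1 in lumbar libraries had rho = 0.68 (permutation p = 0.035, adjusted 0.083) and an r of 0.44 that was 0.87 without the 2 farthest libraries, and for the others rho lay between -0.25 and 0.54 with adjusted permutation p-values of 0.22 or more. Each set of 10 libraries held both sexes, and the means of the glial and endothelial sums were lower in females at both levels. These relations thus include any difference between the sexes, and relations within a sex were not tested. The libraries share the sort and the donors, and whether glial and endothelial cells contributed the Ednrb and Edn1 reads was not tested.

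**Figure D3:**
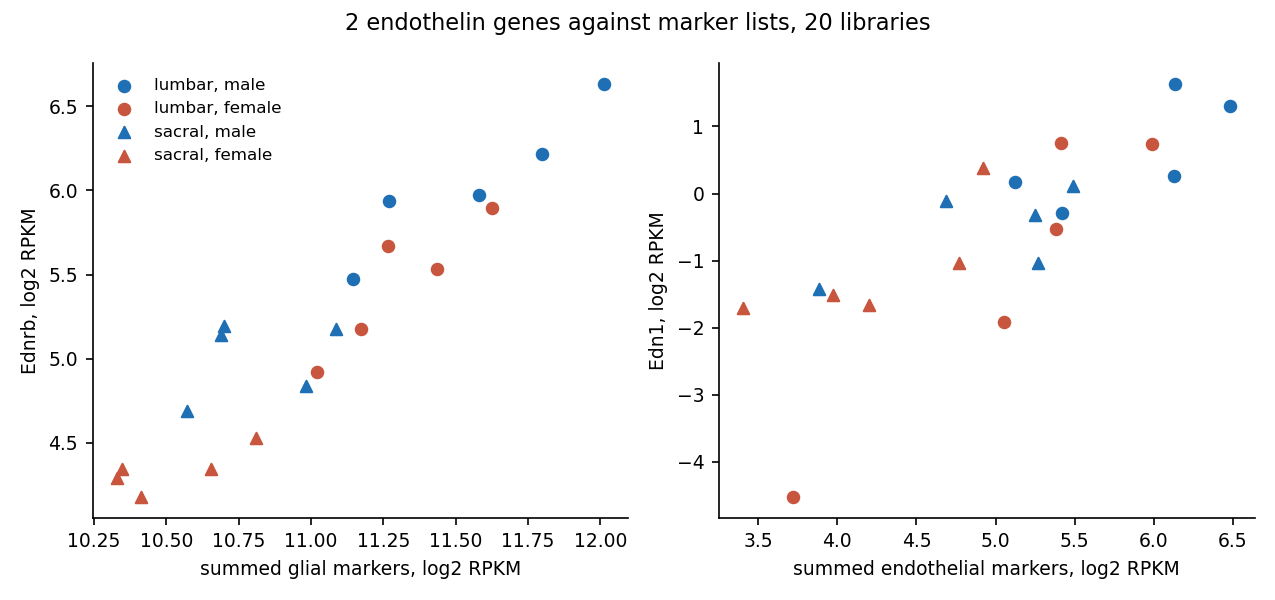
Left, Ednrb (y axis, log2 RPKM) against the summed level of 10 glial markers (x axis, log2 RPKM); right, Edn1 against the summed level of 10 endothelial markers. Points are libraries (circles lumbar, triangles sacral, blue male, red female); r across the 10 lumbar libraries was 0.91 in both, and the lowest Edn1 point is the lumbar library of F2.

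The marker lists differed between levels as follows, beside 45.6% of all genes. Of 10 glial markers 9 were upregulated in lumbar DRG and 0 in sacral, with Fabp7 (1.38 log2, limma adjusted p = 9.2e-06) and Kcnj10 (1.26, 1.6e-06) among them. Of 10 endothelial markers 8 were upregulated in lumbar DRG and 0 in sacral, Cldn5 by 1.22 log2 (adjusted p = 0.0077). Of 8 mural markers tested 5 were upregulated in lumbar and 1 (Rgs5) in sacral DRG, 4 of 6 fibroblast and 2 of 4 macrophage markers were upregulated in lumbar, and of 6 blood markers 3 in lumbar and 2 in sacral. The summed mural markers differed by -0.18 ± 0.39 (SD) log2 and were higher in the lumbar library of 3 of 10 donors, and the summed fibroblast markers by -0.11 ± 0.76 and in 4 of 10. These sums mostly follow their most abundant gene and not the list. Rgs5 had means of 6.76 in lumbar and 7.13 in sacral libraries, beside mural sums of 7.06 and 7.24. Dcn had 6.45 and 6.80, beside fibroblast sums of 6.87 and 6.98. The relation of Ednra with the mural sum is thus mostly one with Rgs5. Of 11 neuronal markers 9 were upregulated in sacral DRG, Trpv1 by 0.96 log2 (lumbar minus sacral -0.96, limma adjusted p = 3.6e-05). With the mean of the glial markers as a covariate the level difference was 0.34 for Ednrb, 0.11 for Ednra, -1.46 for Edn1, -0.05 for Ece1 and -0.06 for Ece2. That of Edn3 was 2.55, beside 2.87 without the covariate. In that fit 0 of the 6 differences, Edn3 included, had an unadjusted p under 0.05 (limma), so 2.55 does not show that the Edn3 difference remains. Over all genes 53 were called with this covariate. With the endothelial and mural mean as a covariate it was 0.94 for Ednrb, -0.76 for Edn1 and 2.26 for Edn3. The part of these cells in the level differences cannot be told apart from level by such fits, because the glial mean itself was higher in the lumbar library of every donor.

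**Figure D4:**
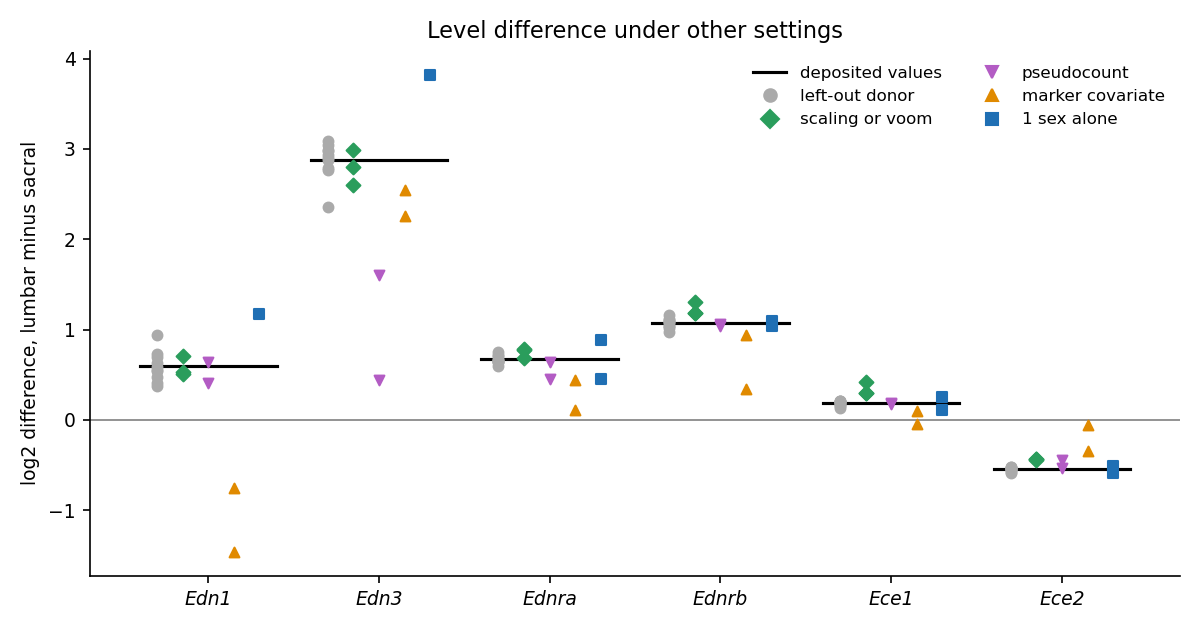
Level difference of the 6 genes (y axis, log2, lumbar minus sacral) under other settings. The black line is the value from the deposited data and each symbol is 1 alternative, by kind; Edn1 and Edn3 were filtered out of the fit with females alone, and the marker covariates gave the values farthest from the line for Edn1, Ednra, Ednrb and Ece2.

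Genes that process endothelins or carry their signal, and neural crest genes tied to endothelin receptor B, were listed by role. Together they are called pathway genes here, and the lists were written with results of these libraries known. Of 65 genes 57 were tested, and 44 of these (77.2%) passed at an adjusted p of 0.05, 12 upregulated in lumbar and 32 in sacral DRG, with a median difference of -0.31 log2. The neural crest list, with 10 genes tested, gave 6 of the 12 and 4 of the 32. Over all genes 45.6% passed, 15.3% towards lumbar and 30.3% towards sacral, with a median of -0.11. With the glial mean as a covariate 0 of the 57 passed in limma, 4 had an unadjusted p under 0.05, and with the endothelial and mural mean 20 passed. Over all 16304 genes 53 passed with the glial mean and 1469 had an unadjusted p under 0.05, and 2753 passed with the endothelial and mural mean. The loss of calls was thus not particular to the pathway genes. Of 7 genes around ligand cleavage, the ligand gene Edn2 among them, only 2 had levels high enough to be tested. Mme, the neutral endopeptidase neprilysin that degrades endothelins, was upregulated in lumbar DRG (0.83 log2, standard error 0.19, limma adjusted p = 0.0013), and Furin, which cuts the precursor, differed by 0.22 (standard error 0.15, adjusted p = 0.22). Kel had no value in 19 of 20 libraries.

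Both receptors couple to Gq, phospholipase C and calcium release. Of 12 genes tested in that list 3 were upregulated in lumbar DRG, all of them inositol trisphosphate receptors, the calcium channels of the endoplasmic reticulum. Itpr2 rose by 1.46 log2 (standard error 0.34, limma adjusted p = 0.0017), Itpr3 by 1.08 (standard error 0.14, 6.1e-06) and Itpr1 by 0.50 (standard error 0.14, 0.0070). Itpr2 stood near the filter of -1, at means of -0.83 in lumbar and -2.29 log2 RPKM in sacral libraries. Its test thus depends in part on the level where it was higher. The 6 upregulated in sacral DRG were led by the protein kinase C genes Prkcb (lumbar minus sacral -1.001, standard error 0.12, adjusted p = 2.5e-06), Prkca (-0.70, standard error 0.13) and Prkce (-0.68, standard error 0.12), and Prkcb was higher in the sacral library of all 10 donors. Of 13 genes of the Gi, Gs and G12/13 list 1 was upregulated in lumbar DRG, Rock1, a serine/threonine kinase (0.53 log2, adjusted p = 0.0025). The 6 upregulated in sacral DRG were led by the G protein subunits Gnao1 (-0.59) and Gna13 (-0.53) and the guanine nucleotide exchange factor Arhgef11 (-0.49).

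Of 11 genes of the mitogen-activated kinase cascade, 9 were upregulated in sacral DRG, led by Sos1 (-0.58 log2, limma adjusted p = 8.7e-05), Map2k1 (-0.55) and Mapk3 (-0.51), which encodes ERK1. Src, a tyrosine kinase, was upregulated in lumbar DRG (0.41, adjusted p = 0.015). Of 9 genes that end receptor signalling 7 passed towards sacral and 0 towards lumbar DRG. They were led by the regulators of G protein signalling Rgs4 (-0.63, adjusted p = 0.00057) and Rgs2 (-0.53) and by the β-arrestin gene Arrb1 (-0.52). With TMM factors 13 pathway genes were called higher in lumbar and 27 in sacral DRG, and with quantile normalization 15 and 25. The median of the Gi, Gs and G12/13 list, -0.12 on the deposited values, turned to 0.08 with quantile normalization.

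Genes tied to endothelin receptor B in the neural crest split by direction. Of 12 listed, 10 were tested and all 10 passed, 6 in lumbar and 4 in sacral DRG. Sox10, the transcription factor of crest-derived glia, rose in lumbar DRG by 1.40 log2 (standard error 0.16, limma adjusted p = 2.7e-06), the neuregulin receptor gene Erbb3 by 1.24 (standard error 0.18) and Mitf, the melanocyte factor, by 1.10 (standard error 0.27). Upregulated in sacral DRG were Gdnf (-1.85 log2, standard error 0.55, adjusted p = 0.0097), its receptor Ret (-0.96, standard error 0.13) and the adhesion molecule L1cam (-0.96, standard error 0.14). Ret and L1cam were higher in the sacral library of all 10 donors and Gdnf in that of 9. Mitf (mean -1.11 in lumbar and -2.21 in sacral libraries) and Gdnf (-2.72 and -0.87) stood near the filter of -1. Their tests thus depend in part on the level where they were higher. Pax3 had no value in 15 libraries. Sox10 and Erbb3 are known from glia in the adult ganglion, and the list of glial markers was also higher in lumbar DRG, as given above. Whether glial cells have a part in the level differences of the 6 genes was not tested.

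**Figure D5:**
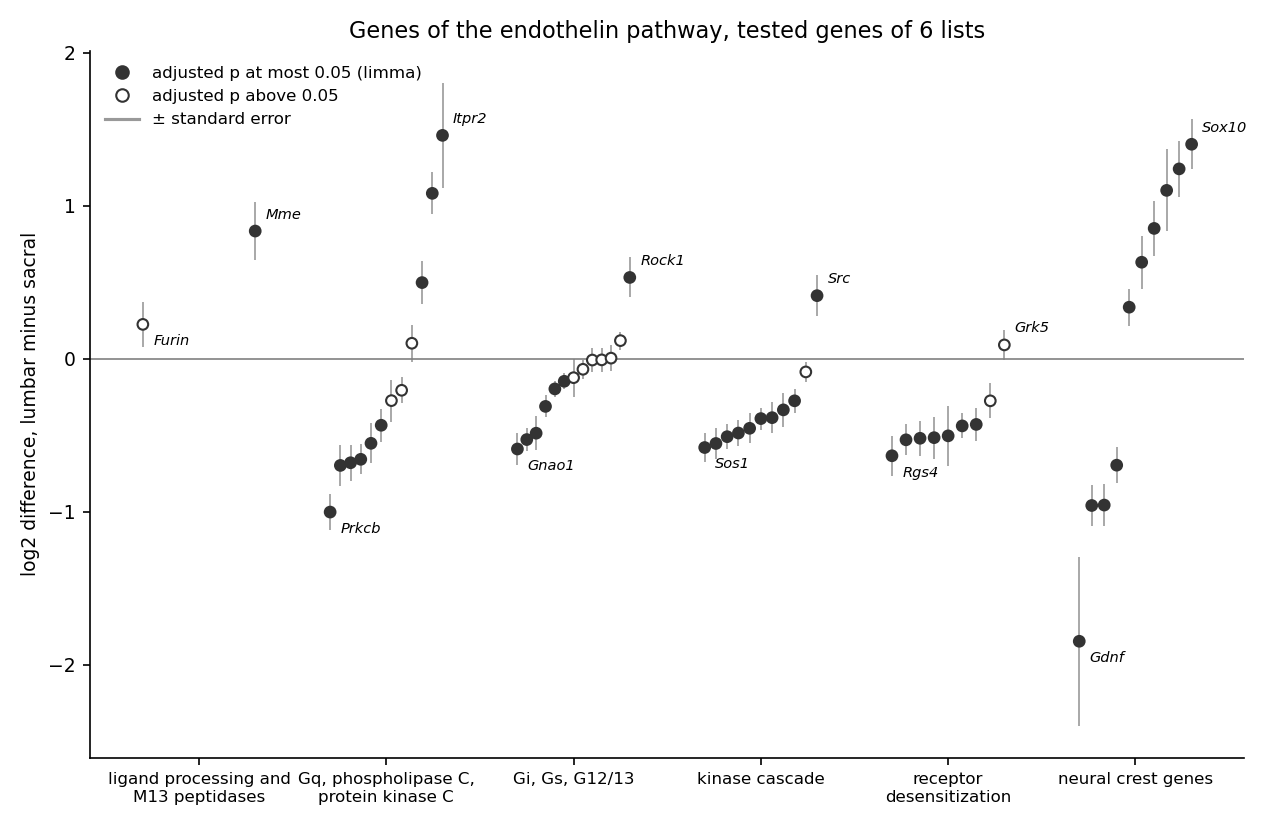
Level difference (y axis, log2, lumbar minus sacral) of each tested gene in 6 lists of the endothelin pathway (x axis), with its standard error. Filled points passed an adjusted p of 0.05 in limma; the 3 inositol trisphosphate receptors lie above 0, 9 of 11 kinase genes are filled and below 0, and the neural crest genes stand on both sides.

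The genes most alike each endothelin gene were found by Pearson's r of deviations from the 4 group means over the 20 libraries, among 15318 genes, as a description. For Ednrb they included Pdzd2 (0.92) and Mfap3l (0.91). For Edn1 they were Olfr558 (0.92), Trim16 (0.89) and Agrn (0.87), and for Edn3 they included Fam163b (0.84) and Lcmt2 (0.84). Olfr558 fell to 8 reads. Edn1 in the lumbar library of F2 was at -4.53 from 6 reads, beside a group mean of -1.10. Edn3 in the sacral library of M2 was at -7.89 from 1 read, beside a group mean of -4.34. How far the r values of these 2 ligands rest on such libraries was not tested. For Ednra they were Mtmr10 (0.88) and Zhx2 (0.85), followed by an identifier without a symbol that carries the values of Zhx2. For Ece1 they were C130039O16Rik (0.89), Dlc1 (0.89) and Stard13 (0.88), and for Ece2 Aacs (0.88), Camk4 (0.85) and Copg2 (0.83). Among the endothelin genes themselves r was highest between Ednrb and Ece1 (0.70) and between Ednra and Ednrb (0.66), was 0.58 between Edn1 and Edn3, and was negative between Ece2 and each of the other 5, from -0.54 with Ednrb to -0.10 with Edn3.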

How the data were processed

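RNA-seq was measured in 20 libraries of cells sorted to enrich Trpv1 neurons, in which markers of other cells also had values. Per the submitters' notes and the study's methods, the authors aligned reads to mm9 with Subread, counted uniquely mapped reads on Ensembl genes with featureCounts and scaled them with edgeR and limma. The table deposited by the authors holds log2 RPKM, 1 column per library, and 0 columns of samples were left unmapped. Every library has the same median of 0.93, a step the sources used here do not describe. Gene symbols, positions and exon lengths came from GENCODE M1 on NCBIM37, to which 37205 of 37620 identifiers matched and 415 did not. The authors' Ensembl release can differ from it.

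Empty cells were kept as missing. Reads were worked back from the deposited values and gene lengths, and 98.4% of 166478 values of at most 100 reads came out whole within 0.01 of a read. They served for depth and for alternatives, and intervals of depth cover counting error only. Genes were kept when the mean of their values was above -1 in at least 1 group with at least 3 values there (16422 genes). A gene near this limit can be tested through only the group where it is high, so its call is not independent of the filter. A mean for each of the 4 groups was fitted in R 4.3.3 (limma 3.58.1, statmod 1.5.0), with the donor as a random block (correlation 0.17) and a mean-variance trend, and p-values were adjusted by Benjamini-Hochberg over all genes tested at 0.05. Where a gene had empty cells, those libraries were dropped from its fit. Fits were tested on simulated data. Summaries and permutation tests, two-sided with 100000 resamples, were made in Python 3.11.15 (scipy 1.17.1, numpy 2.4.6, pandas 2.3.3), and figures with matplotlib 3.10.9.

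Lumbar and sacral libraries of a donor share their animal numbers in the labels, so they were taken as paired. Their deviations from the group means correlated by 0.18 on average (0.039 to 0.30), and those of different donors of a sex by -0.044. The limma p-values rest on the spread of libraries around their group means, with a donor correlation shared by all genes. Permutation p-values refer to a relation across 10 libraries of a level. A donor may be a pool.

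The 6 genes, the pathway lists and the marker lists were chosen with earlier results of these data known. Named in each pathway list are up to 3 genes per direction with the largest difference among those called, genes empty in most libraries, and for each endothelin gene the 3 genes most alike. A few genes named by this rule are left out of the text and not reported here. A marker sum is the log2 of summed RPKM, with empty cells as 0. Alternatives were other filters, pseudocounts of 1 and 0.1, quantile normalization, TMM factors, voom on worked-back reads, other donor models, no trend, each donor left out, each sex alone, marker means as covariates and empty cells at 0.5 reads.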

Additional observations from a re-analysis of the deposited data

How the results depend on the processing

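The level differences of the 6 genes were recomputed under 25 alternatives. Edn3 could not be fitted under 2 of them (the stricter filter and females alone) and Edn1 under 1 (females alone), since their levels did not pass the filter. With a pseudocount of 1 the Edn3 difference was 0.45 (0.446), and with quantile normalization that of Ece1 was 0.41. With the glial marker mean as a covariate Edn1 was at -1.46, Ednra 0.11, Ednrb 0.34, Ece1 -0.048, Ece2 -0.055 and Edn3 2.55. In that fit 0 of the 6 differences had an unadjusted p under 0.05 (limma). With the endothelial and mural mean Ece2 was at -0.34. The causes were not tested. Leaving out each donor gave 2.35 to 3.09 for Edn3, 0.37 to 0.95 (0.945) for Edn1, 0.59 to 0.75 for Ednra, 0.97 to 1.16 for Ednrb, 0.14 to 0.21 for Ece1 and -0.59 to -0.52 for Ece2.

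The genes called between levels numbered 4644 in males alone, 3671 in females alone, 53 with the glial covariate and 2753 with the endothelial and mural covariate, against 7436, and between 6623 and 7475 with a donor left out. Each sex alone has 5 donors in place of 10. Over all genes 7010 were called with TMM factors, 6812 with voom, 6495 with quantile normalization and 7044 with the stricter filter. Of the 6 endothelin genes 5 were called with TMM factors, voom, quantile normalization, males alone and without M5 or F2. With the stricter filter and with the endothelial and mural covariate 3 were called, and 2 in females alone. With the glial covariate 0 were called (limma), beside 0 at an unadjusted p under 0.05. The counts of these 6 genes follow from how they were chosen, and nothing is read from them. Of the pathway genes 26 were called in females alone, 20 with the endothelial and mural covariate and 0 with the glial covariate (limma), beside 4 at an unadjusted p under 0.05, against 44. Over all genes 1469 of 16304 had an unadjusted p under 0.05 with the glial covariate. Without the replicate block that pairs the libraries of a donor 6577 genes were called, and with the replicate block as a fixed effect 7151, and neither fit moved a count of calls by over 1.5 times. The sex and interaction tests called 0 of the 6 genes under all alternatives run.

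Depth limits Edn3, whose sacral levels rest on 1 to 48 reads, and Edn2, which could not be tested.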
